A study of Rattus norvegicus with 23 samples.

Results

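Neutrophils carry proteases, antimicrobial proteins and metal-binding proteins in granules that are filled one class after another while the cell matures in the bone marrow. Primary (azurophil) granules are filled at the promyelocyte stage, secondary (specific) granules at the myelocyte and metamyelocyte stages, and tertiary (gelatinase) granules last, and transcription of each class is largely switched off once its stage has passed. A circulating neutrophil therefore holds primary granule proteins but few of their transcripts. Some of these genes are also transcribed outside the neutrophil lineage: Lcn2 by astrocytes, endothelium and macrophages during inflammation, and Mmp9 by activated macrophages.

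The 10 granule genes described here were grouped by the class of granule that holds their protein. The primary class had 3 genes: Mpo (myeloperoxidase, which makes hypochlorous acid), Elane (neutrophil elastase) and Prtn3 (proteinase 3, a serine protease). The secondary class had 6: Ngp (neutrophilic granule protein, a relative of the cathelicidins), Camp (the cathelicidin antimicrobial peptide precursor), Ltf (lactoferrin, which binds iron), Lcn2 (lipocalin 2, which binds bacterial siderophores), Mmp8 (neutrophil collagenase) and Olfm4 (olfactomedin 4, a glycoprotein present in a subset of neutrophils). Mmp9 (gelatinase B) stood for the tertiary class. All 10 were among the 20301 genes of the table.

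The cells were microglia isolated with CD11b/c magnetic beads from Wistar rat pups of both sexes, operated on at postnatal day 7 and sampled 24 h later, with RNA sequenced in 23 samples. CD11b is carried by neutrophils and monocytes as well as by microglia. Sham pups (6 samples) underwent the sham operation, with no injection listed. LPS pups (5 samples) received 0.1 mg/kg of lipopolysaccharide intraperitoneally 4 h before a sham operation. NaCl/HI pups (6 samples) received saline and then hypoxia-ischaemia, that is ligation of the left carotid artery followed by 50 min at 8% oxygen, and LPS/HI pups (6 samples) received lipopolysaccharide before the same insult. Each Sham and LPS sample was the entire brain of 1 pup, whereas each NaCl/HI and LPS/HI sample pooled the ipsilateral hemispheres of 2 pups, so that in any contrast of a hypoxia-ischaemia group with Sham or LPS the insult cannot be told apart from the tissue sampled and the pooling. With no injection listed for Sham, the injection itself also cannot be told apart from LPS or the insult in contrasts with Sham. Values are regularised log2 expression (rlog, a log2 scale on which the spread of weakly counted genes is pulled in), and differences are on that log2 scale.

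The libraries were alike in scale, with sample medians between 7.75 and 7.82, and their read depth is unknown because the table holds no counts. The label was checked against 9 microglia markers, whose mean lay between 14.2 and 14.5 in every sample. A list of 15 neutrophil genes averaged 7.13 to 7.56 in Sham, 7.19 to 7.54 in LPS, 7.27 to 7.85 in NaCl/HI and 7.52 to 8.45 in LPS/HI. Genes of this list were thus measured in every group, and no defining marker of it was near the bottom of the scale: S100a8 ranged from 7.98 to 10.95 and Cxcr2 from 7.89 to 9.44. Group means within the list ran from 4.43 to 5.22 for Padi4, against 11.7 to 11.9 for Csf3r and 11.8 to 12.3 for Il1b. The part of microglia in the values of these genes was not tested. In such bulk samples fewer cells of a type and less RNA per cell cannot be told apart.

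The promoters of the 5 secondary granule genes that passed a test in at least 1 comparison are shown so that the genes that were lower after LPS (Ngp, Camp) can be read beside those that were higher in LPS/HI (Lcn2, Mmp8, Olfm4). Each line gives the 250 bases before the transcription start site, 5′ to 3′ on the strand of the gene, from RefSeq on the GRCr8 build, on which 8 of the 10 members matched an entry (Elane and Mmp9 did not). Capitals mark matches to the C/EBP motif TTGCNNAA and to the NF-kB motif GGANNNTCC on either strand. The windows are chr8:119272355-119272604 (plus strand) for Ngp, chr8:118721999-118722248 (minus strand) for Camp, chr3:36081781-36082030 (minus strand) for Lcn2, chr8:13008640-13008889 (plus strand) for Mmp8 and chr15:61815981-61816230 (plus strand) for Olfm4.
Ngp: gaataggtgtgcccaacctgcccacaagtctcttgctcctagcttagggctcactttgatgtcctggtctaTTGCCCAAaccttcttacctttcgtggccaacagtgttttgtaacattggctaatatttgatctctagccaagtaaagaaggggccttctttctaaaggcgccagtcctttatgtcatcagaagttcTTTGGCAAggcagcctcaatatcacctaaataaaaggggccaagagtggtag
Camp: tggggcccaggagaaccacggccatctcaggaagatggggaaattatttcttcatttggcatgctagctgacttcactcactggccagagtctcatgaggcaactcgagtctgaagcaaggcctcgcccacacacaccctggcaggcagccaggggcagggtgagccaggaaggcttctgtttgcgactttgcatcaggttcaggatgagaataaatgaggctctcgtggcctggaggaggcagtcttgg
Lcn2: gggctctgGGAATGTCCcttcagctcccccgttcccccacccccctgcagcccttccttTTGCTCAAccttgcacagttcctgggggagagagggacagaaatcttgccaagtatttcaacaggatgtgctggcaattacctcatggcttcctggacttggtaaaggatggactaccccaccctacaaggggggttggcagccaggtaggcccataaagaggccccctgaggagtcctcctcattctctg
Mmp8: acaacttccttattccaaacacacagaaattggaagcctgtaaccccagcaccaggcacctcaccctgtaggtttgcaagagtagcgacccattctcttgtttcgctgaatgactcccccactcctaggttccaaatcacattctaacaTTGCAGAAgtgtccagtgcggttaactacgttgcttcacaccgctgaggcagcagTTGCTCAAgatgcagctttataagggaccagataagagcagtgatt
Olfm4: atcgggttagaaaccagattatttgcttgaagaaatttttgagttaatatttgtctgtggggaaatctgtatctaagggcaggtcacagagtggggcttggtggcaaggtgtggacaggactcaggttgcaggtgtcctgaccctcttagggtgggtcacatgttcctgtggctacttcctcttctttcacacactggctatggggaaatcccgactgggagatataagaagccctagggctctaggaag
C/EBP factors, above all C/EBP-epsilon, drive secondary granule genes during granulocyte maturation, and NF-kB mediates transcription after Toll-like receptor signalling. The C/EBP letters were found in the windows of Ngp (179 and 52 bases before the start), Lcn2 (191) and Mmp8 (101 and 46), that is in 3 of 8 members, against 9.22% of all 33469 promoters of the same length. The NF-kB letters were found only in Lcn2 (242 bases before the start) among the 8, against 6.76% of all promoters. Of the other motifs searched, PU.1 (GAGGAA; 23.3% of all promoters) matched Mpo, Prtn3 and Olfm4, the HIF form GCGTG (25.9%) matched Ltf, and TATAAA (12.9%) matched Mmp8, whereas AP-1 (TGANTCA; 6.34%) and the HIF form ACGTG (16.6%) matched none of the 8. The 2 HIF forms differ in their first letter, and no 2 matches overlapped in these windows. The pair that was lower after LPS and the 3 genes that were higher in LPS/HI were not separated by either motif in capitals, since Camp and Olfm4 held neither.

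The members differed first in how far they varied. The SD over the 23 samples exceeded that of 99% of all genes for each of Ngp, Camp, Lcn2, Mmp8, Olfm4 and Mmp9, with ranges from 1.84 (Ngp) to 3.49 (Olfm4) on the log2 scale. Ltf ranged over 0.38, Mpo over 0.56, Prtn3 over 0.57 and Elane over 0.20. These 4 were also the most weakly counted members: the share of all genes with a mean at or below theirs ran from 6.98% (Elane) to 28.6% (Ltf), against 35.8% (Camp) to 49.0% (Lcn2) for the other 6. This share follows transcript length as well as abundance, so it describes counts and not levels. The SD of Mpo, Prtn3, Ltf and Elane exceeded that of 76.3%, 66.4%, 57.0% and 6.02% of all genes.

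**Figure D1:**
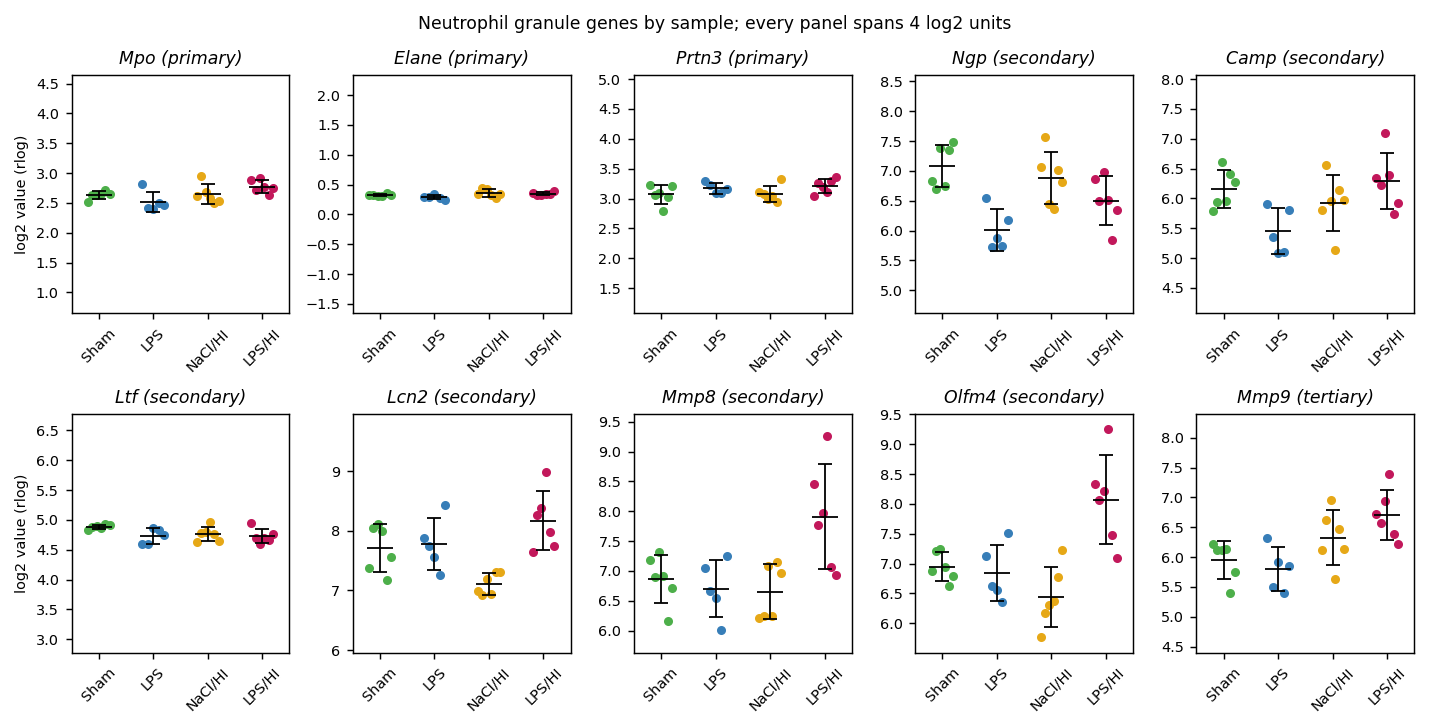
Log2 (rlog) values of the 10 granule genes (vertical axis, 4 log2 units in every panel) in each sample of the 4 groups (points), with the group mean and SD (black bars). The primary genes and Ltf stayed within 0.57 log2 units over all samples, Ngp and Camp were lowest in LPS, and Mmp8 and Olfm4 reached their highest values in LPS/HI.

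Among the primary granule genes no member passed the test in any of the 6 pairwise contrasts or in the interaction. Without adjustment, limma p under 0.05 was reached by Mpo in 2 of these tests and by Elane in 1. Mpo had a mean of 2.63 ± 0.07 in Sham (SD, n = 6), 2.52 ± 0.17 in LPS (n = 5), 2.64 ± 0.17 in NaCl/HI (n = 6) and 2.77 ± 0.11 in LPS/HI (n = 6). Its largest difference was 0.26 between LPS/HI and LPS (SE 0.08, adjusted p = 0.10 by limma over all genes). Prtn3 lay between 2.79 and 3.36 in all 23 samples, and its largest difference was 0.14 between LPS/HI and Sham (SE 0.08, adjusted p = 0.26). Elane lay between 0.25 and 0.44, so the data hold little information on it. The mean of the 3 primary genes was 1.92 to 2.07 in Sham, 1.94 to 2.13 in LPS, 1.91 to 2.16 in NaCl/HI and 2.07 to 2.17 in LPS/HI. For Mpo the 95% interval ran from -0.02 to 0.31 between LPS/HI and Sham and from 0.09 to 0.43 between LPS/HI and LPS. The latter difference was called in 2 of the other fits, at 0.33 without LPS replicate 1 (adjusted p = 0.0339), whose Mpo value of 2.81 was the highest of its group, and with 19 residual degrees of freedom (adjusted p = 0.0494). The 12 further primary granule genes in the table ranged widely. Ctsg (cathepsin G) and Bpi (bactericidal permeability-increasing protein) had group means below 0, whereas the defensins Np4, Defa5 and RatNP-3b had group means of 5.15 to 6.03, 4.95 to 5.92 and 5.91 to 6.66, and Fcnb (ficolin B) of 6.74 to 7.57. None of these 4 passed in a pairwise contrast of LPS/HI or LPS: the LPS/HI mean of RatNP-3b exceeded that of LPS by 0.75 (adjusted p = 0.0529, limma), and that of Fcnb exceeded Sham by 0.83 (adjusted p = 0.0798).

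LPS without hypoxia-ischaemia was compared with Sham to show the effect of the systemic stimulus, its injection included. Ngp and Camp fell, and no member rose. Ngp values in LPS were 6.54, 5.72, 5.88, 5.74 and 6.19 in replicates 1 to 5, whereas the 6 Sham values ran from 6.70 through a median of 7.09 to 7.48. All 5 LPS samples thus lay below all 6 Sham samples. The difference was -1.07 (SE 0.23, adjusted p = 0.00261). Camp values in LPS were 5.90, 5.36, 5.08, 5.10 and 5.81, against 5.79 to 6.61 in Sham with a median of 6.11, so that replicates 1 and 5 reached into the Sham range. Camp fell by 0.71 on the log2 scale (SE 0.24, adjusted p = 0.0442). The 2 of 10 members called stood beside 17.8% of all genes called in this contrast, a share close to the background. With a fold above 2 also required, Ngp alone was called, beside 0.069% of all genes.

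The other secondary genes did not pass between LPS and Sham: Lcn2 differed by 0.06 (adjusted p = 0.88), Mmp8 by -0.17 (0.78), Olfm4 by -0.11 (0.84) and Ltf by -0.16 (0.17), all by limma, and Mmp9 by -0.16 (0.69). The decrease of Ngp was found in each series of libraries, with -0.92 among replicates 1 to 3 (libraries numbered 1 to 12) and -1.23 among the later replicates (libraries 13 to 23), and that of Camp likewise (-0.67 and -0.76). The Ngp call passed with each of the 23 libraries left out in turn, with adjusted p between 0.00156 and 0.0111. The Camp call was lost without any 1 of Sham replicates 2 to 6, LPS replicates 2, 3 or 4, NaCl/HI replicate 1 or LPS/HI replicates 2 or 4 (adjusted p up to 0.115). It was also lost without the variance trend, with robust variances, after quantile normalisation and by the exact Wilcoxon rank-sum test (adjusted p = 0.0697).

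Other blood cell markers were set beside this decrease. The 6 erythrocyte markers in the table averaged 6.40 to 7.77 in Sham and 6.08 to 6.87 in LPS, with 6 of 6 lower in mean and none called by limma (3 at p under 0.05 without adjustment). Of the 15 neutrophil genes, 2 were higher (Csf3r 0.24, Il1b 0.43) and 2 lower (Cxcr1 -0.31, Fpr1 -0.29), beside 17.8% of all genes called, named here after their values were seen. S100a8 and S100a9 (subunits of calprotectin) differed by 0.26 and 0.03 (adjusted p = 0.62 and 0.96, limma), and Cxcr2 by -0.40 (0.13). Of the 9 microglia markers, 4 were lower and 1 higher, beside the same 17.8%. The part of these in the decrease of Ngp and Camp was not tested.

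LPS was also compared with NaCl/HI, 2 groups that differ in stimulus and in tissue. Ngp fell by 0.86 (SE 0.23, adjusted p = 0.0207, limma), with NaCl/HI values from 6.37 through 6.92 to 7.56, so that LPS replicate 1 reached into that range. Lcn2 was 0.67 higher in LPS without passing (adjusted p = 0.0707), and Camp 0.48 lower (0.24). Lcn2 was called with 19 residual degrees of freedom (adjusted p = 0.0387, limma) and without LPS replicate 4 (difference 0.80) or LPS/HI replicate 4 (adjusted p = 0.0422). This 1 of 10 members stood beside 8.98% of all genes, and 0 of 10 beside 0.0591% with a fold above 2. The Ngp call was lost without LPS replicate 2 or LPS replicate 4 (adjusted p up to 0.063), in a fit of these 2 groups alone and by the exact Wilcoxon test (adjusted p = 0.123).

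Hypoxia-ischaemia after saline was compared with Sham to show the effect of the insult without LPS, the saline injection included. No member passed by limma or by the exact Wilcoxon test, at a background of 0.00985% of all genes called, or 0.00493% with a fold above 2. Without adjustment 1 member passed p under 0.05 by limma and 1 by the exact Wilcoxon test, in both cases Lcn2, which was 6.93 to 7.30 in NaCl/HI and 7.17 to 8.12 in Sham (difference -0.60, SE 0.22, limma adjusted p = 0.22). Olfm4 differed by -0.51 (adjusted p = 0.41) and Mmp9 by 0.37 (adjusted p = 0.44). The Olfm4 difference was -1.03 in the first series of libraries and 0.01 in the second. The 95% interval for Olfm4 ran from -1.11 to 0.09 and that for Mmp9 from -0.09 to 0.83, so that changes of about this size were not detectable.

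LPS before hypoxia-ischaemia was compared with Sham to show the combined effect. Olfm4, Mmp8 and Mmp9 rose, and no member fell. Olfm4 ran from 7.09 through a median of 8.14 to 9.25 in LPS/HI and from 6.62 through 6.91 to 7.25 in Sham. In 5 of 6 LPS/HI samples it exceeded every Sham sample, and replicate 6 alone lay within the Sham range. The difference was 1.12 (SE 0.29, adjusted p = 0.0219). Mmp8 ran from 6.92 through 7.87 to 9.26 in LPS/HI and from 6.17 through 6.91 to 7.32 in Sham, with 4 of 6 LPS/HI samples above every Sham sample. It rose by 1.04 (SE 0.32, adjusted p = 0.0476). Mmp9 ran from 6.21 through 6.65 to 7.40, against 5.41 through 6.12 to 6.22 in Sham, and 5 of 6 samples exceeded every Sham sample. It rose by 0.75 (SE 0.22, adjusted p = 0.0369).

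These 3 of 10 members stood beside 8.77% of all genes called in this contrast. With a fold above 2 also required, 2 members (Mmp8 and Olfm4) were called beside 0.0936% of all genes. Lcn2 was 0.45 higher without passing (adjusted p = 0.18 by limma), Camp 0.12 higher (0.77), Ltf 0.16 lower (0.18) and Ngp 0.58 lower (SE 0.22, 0.0939). Within the class of secondary granules the means thus lay on both sides of Sham, with 4 of 6 above it. The differences in the 2 series of libraries were 1.09 and 1.15 for Olfm4, 0.93 and 1.15 for Mmp8 and 0.60 and 0.91 for Mmp9.

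The Olfm4 call passed with each of the 23 libraries left out in turn (adjusted p between 0.00927 and 0.0484), LPS/HI replicate 4 included, which had the highest value of all 23 samples for Lcn2, Mmp8, Olfm4 and Mmp9, and was lost by the exact Wilcoxon test (adjusted p = 0.0612). The Mmp9 call was lost without any 1 of Sham replicates 2, 4, 5 or 6 or LPS/HI replicates 2 to 5 (adjusted p up to 0.0935) and with robust variances. The Mmp8 call held with only 7 of the 23 libraries left out (Sham 3, LPS 4, LPS 5, NaCl/HI 3, NaCl/HI 4, LPS/HI 5 and LPS/HI 6), with adjusted p up to 0.112 in the other 16 fits, and in 2 of 10 other analyses.

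**Figure D2:**
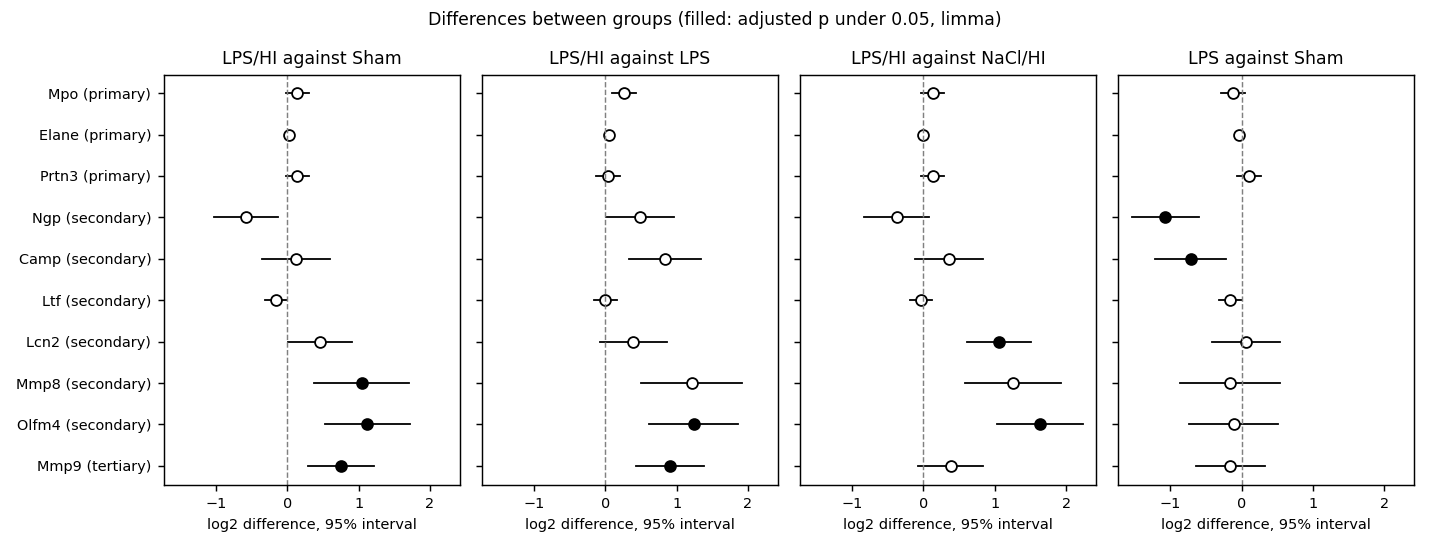
Log2 differences between groups (horizontal axis) with 95% intervals for the 10 granule genes (vertical axis) in 4 contrasts, filled where the limma adjusted p is under 0.05. Olfm4 is filled in all 3 contrasts of LPS/HI, and Ngp and Camp are filled on the lower side in LPS against Sham. The primary genes and Ltf lie near 0 with narrow intervals, on a scale that pulls in the spread of weakly counted genes.

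LPS/HI was compared with LPS to show what the insult added to the stimulus. Olfm4 was 6.36 to 7.51 in LPS, and 4 of 6 LPS/HI samples lay above all 5. It rose by 1.24 (SE 0.30, adjusted p = 0.0385, limma). Mmp9 was 5.40 to 6.33 in LPS, and 5 of 6 LPS/HI samples lay above all 5. It rose by 0.91 (SE 0.23, adjusted p = 0.0452). Mmp8 was 1.21 higher (SE 0.34, adjusted p = 0.0639) and Camp 0.84 higher (SE 0.24, adjusted p = 0.0708), and neither passed. Both were called with 19 residual degrees of freedom (adjusted p = 0.0281 and 0.0316, limma), Mmp8 also without LPS/HI replicate 6 (difference 1.40, 0.0404) and Camp without NaCl/HI replicate 4 (0.0472). The 2 of 10 members stood beside 1.94% of all genes, and the 1 member with a fold above 2 (Olfm4) beside 0.0345%.

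The 6 secondary genes differed between these groups by 0.00091 (Ltf, -0.030 with median centring) to 1.24 (Olfm4), with a median of 0.66 beside 0.0016 over all genes. Neither call held throughout. Olfm4 was lost without any 1 of LPS replicates 2 to 4 or LPS/HI replicates 1 to 4 (adjusted p up to 0.136), and the Mmp9 call held with only 7 libraries left out (Sham 1, Sham 5, LPS 1, NaCl/HI 2, NaCl/HI 3, NaCl/HI 4 and LPS/HI 6), with adjusted p up to 0.153. Both were also lost without the variance trend, with robust variances, after quantile normalisation, in a fit of these 2 groups alone and by the exact Wilcoxon test (adjusted p = 0.21 and 0.123), by which no gene of the 20301 passed after adjustment and 2935 passed p under 0.05 without it. The series differences were 1.44 and 1.00 for Olfm4 and 0.84 and 1.04 for Mmp9.

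LPS/HI was compared with NaCl/HI, the contrast in which both groups came from the same kind of pooled hemisphere. Olfm4 and Lcn2 rose. Lcn2 ran from 7.64 through 8.12 to 8.99 in LPS/HI and from 6.93 through 7.09 to 7.30 in NaCl/HI, so that all 6 LPS/HI samples lay above all 6 NaCl/HI samples. The difference was 1.06 (SE 0.22, adjusted p = 0.0460, limma). Olfm4 was 5.77 to 7.23 in NaCl/HI with a median of 6.34, and 5 of 6 LPS/HI samples exceeded all 6. The difference was 1.63 (SE 0.29, adjusted p = 0.0241), the largest pairwise difference of any member. Mmp8 was 1.25 higher (SE 0.32, adjusted p = 0.104, and 0.0406 with 19 residual degrees of freedom) with 4 of 6 samples above all NaCl/HI samples, whereas Mmp9 was 0.38 higher (0.57) and Camp 0.36 higher (0.62). Ngp was 0.38 lower (0.57).

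The 2 of 10 members stood beside 0.202% of all genes, and both had a fold above 2, beside 0.0148% of all genes. The Lcn2 difference was 1.06 in each series of libraries, and that of Olfm4 was 2.13 in the first and 1.14 in the second. Olfm4 lost its call without any 1 of NaCl/HI replicates 1, 2 or 5 or LPS/HI replicates 2 or 4 (adjusted p up to 0.0853), without the variance trend, with robust variances and in a fit of these 2 groups alone. Lcn2 kept its call only without Sham replicate 5, LPS replicate 4, LPS replicate 5 or LPS/HI replicate 1 (adjusted p up to 0.124 otherwise) and in 2 of 10 other analyses. By the exact Wilcoxon test both missed the threshold (adjusted p = 0.162 for Lcn2 and 0.196 for Olfm4), and that test called no gene of the table here (2067 at p under 0.05 without adjustment).

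The interaction asked whether the difference made by LPS was larger after hypoxia-ischaemia than after the sham operation. It was larger for Olfm4, by 1.75 (SE 0.42, adjusted p = 0.0465 by limma): LPS differed from Sham by -0.11, and LPS/HI from NaCl/HI by 1.63. In the first series of libraries these differences were -0.34 and 2.13, and in the second 0.15 and 1.14, so that they lay closer together in the second. Mmp8 (1.42, adjusted p = 0.14), Camp (1.07, 0.12), Lcn2 (0.99, 0.12), Ngp (0.69, 0.30) and Mmp9 (0.54, 0.45) had positive interactions that did not pass. The 1 of 10 members stood beside 1.08% of all genes, and beside 0.00985% with a fold above 2. The Olfm4 call held with only 6 of the 23 libraries left out (Sham 5, LPS 5, NaCl/HI 4, NaCl/HI 6, LPS/HI 5 and LPS/HI 6), with adjusted p up to 0.111 otherwise, and was lost without the variance trend, with robust variances, with the library series as a block and after quantile normalisation. The sham arm came from entire brains of single pups and the other from pooled hemispheres, which cannot be told apart from the insult in this term. In the sham arm LPS was set against pups with no injection listed, and in the other against pups given saline. The injection therefore also enters this term.

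**Figure D3:**
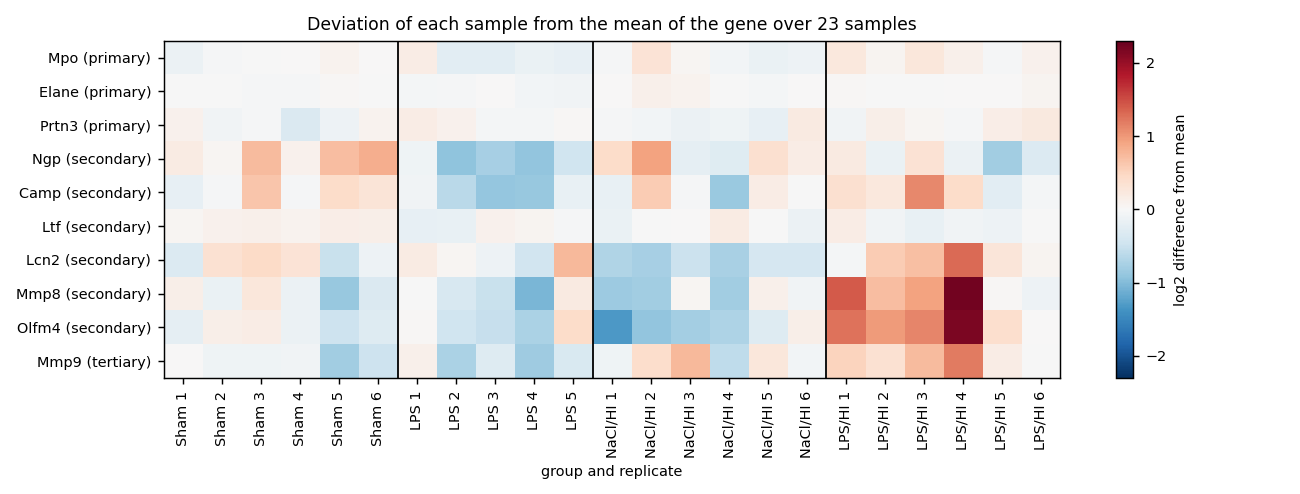
Deviation of each of the 23 samples (columns, by group and replicate) from the mean of each granule gene (rows), in log2 units. LPS/HI replicates 1 to 5 are above the mean in Mmp8, Olfm4 and Mmp9, with replicate 4 the highest sample of all for these genes and Lcn2. Ngp and Camp are below the mean in all 5 LPS samples.

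The members were next compared by how they varied among samples of the same group. Pearson's r was computed over 23 samples after subtraction of the group means, as a description, since the samples share a normalisation and surrogate variables that were removed from all of them. Lcn2, Mmp8, Olfm4 and Mmp9 varied together, with r from 0.54 to 0.88 (median 0.72) and the highest value between Mmp8 and Olfm4. Ngp and Camp varied together with r = 0.85. Between these 2 sets r ran from 0.06 to 0.50, with a median of 0.32. The 6 genes thus fell into 2 sets that cut across the class of secondary granules, and the tertiary gene Mmp9 lay in the first set. Ltf, the sixth secondary gene, had r between -0.45 and 0.19 with the other 9 members.

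The 3 primary genes had r between -0.10 and 0.43 among themselves. Mpo varied more with Ngp (0.69) and Camp (0.64) than with either primary gene. Mmp8 and Mmp9 followed the neutrophil genes S100a9 (0.87 and 0.88) and S100a8 (0.80 and 0.85), and r with S100a9 and S100a8 was 0.60 and 0.53 for Lcn2, 0.70 and 0.63 for Olfm4, 0.58 and 0.58 for Camp and 0.36 and 0.32 for Ngp. The neutrophil genes Cxcr2 and Csf3r were followed less closely. With Cxcr2, r was 0.60 for Mmp8, 0.71 for Mmp9, 0.36 for Olfm4 and 0.21 for Lcn2. With Csf3r it was 0.09, 0.31, -0.08 and -0.05 for the same genes. Cebpe, the regulator of late granulocyte maturation, had r = 0.66 with Camp, 0.51 with Ngp, 0.64 with Mpo, 0.48 with Mmp9, 0.32 with Lcn2, 0.08 with Mmp8 and 0.01 with Olfm4. With the microglia markers, r over the 10 members lay between -0.30 and 0.27 for Tmem119 and between -0.05 and 0.39 for P2ry12, the latter highest for Mmp8 and Mmp9.

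**Figure D4:**
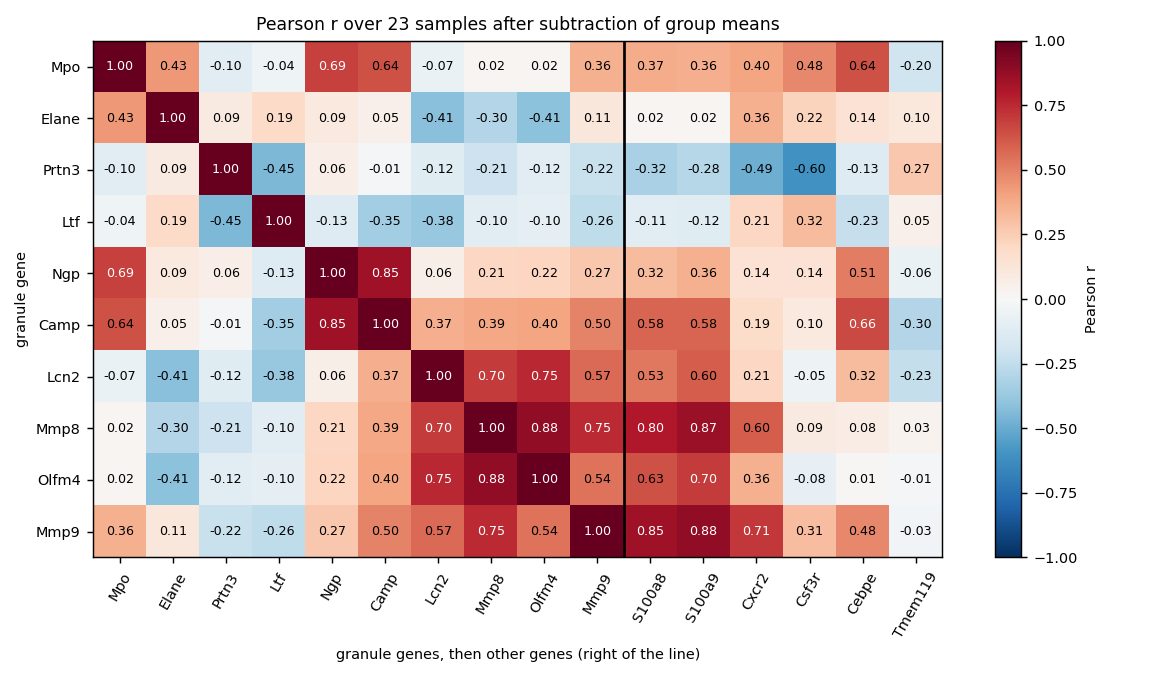
Pearson's r over 23 samples after subtraction of group means between the 10 granule genes (rows) and the same genes plus 6 others (columns, the others to the right of the line). Lcn2, Mmp8, Olfm4 and Mmp9 form one block (0.54 to 0.88), Ngp and Camp another (0.85), and Elane, Prtn3 and Ltf belong to neither.

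The genes of the table most like each class in this measure were taken by the within-group r with the mean of the class. For the secondary class they were Cd177 (0.93), Ifitm6 (0.84), S100a9 (0.84), Pglyrp1 (0.83) and Irak3 (0.83), of which Cd177 is a neutrophil surface protein and Pglyrp1 is itself a secondary granule protein. For Mmp9 they included Trem1 (0.90), S100a9 (0.88), Slc25a24 (0.86) and Padi4 (0.85). The primary class was nearest to LOC120100402 (0.84), Or5ak22 (0.82), Mir362 (0.79), Slc35d3 (0.76) and AABR07001416.1 (0.74). For 4 of these 5, fewer than 10% of genes had a mean as low or lower.

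The other genes of the granule system were taken from lists written from general knowledge, of which 40 of 45 further genes of the 4 granule and vesicle classes were in the table. Between LPS/HI and Sham 1 of 12 further primary genes, 4 of 14 further secondary, 0 of 7 further tertiary and 2 of 7 secretory vesicle genes rose, beside 8.77% of all genes called, and none fell. The share in the further primary list was close to that background. The secondary ones were Slpi (1.05, a protease inhibitor), Pglyrp1 (0.68, a peptidoglycan-binding protein), Ptx3 (0.54, a soluble pattern receptor) and Cyba (0.30, adjusted p = 0.00715, limma), the membrane subunit of the NADPH oxidase, which microglia also express. The vesicle genes were Cd14 (0.58, adjusted p = 0.0184), the lipopolysaccharide co-receptor, and Fcgr3a (0.37), both also expressed by microglia, and the primary one was Cd63, a membrane protein of lysosomes in many cells. The median difference was 0.21 for the further primary and 0.26 for the further secondary genes, beside -0.0024 over all genes. Against NaCl/HI none of the 40 passed by limma (7 at p under 0.05 without adjustment), beside 0.202% of all genes called. Against LPS 2 of the 40 were called, beside 1.94% of all genes (23 at p under 0.05 without adjustment): Ptx3 rose (0.66) and Gusb fell by 0.27.

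Between LPS and Sham 5 of the 40 were higher (Ctsc, Gusb, Cyba, Cd14 and Fcgr3a) and 2 lower (Fpr1 and Mme), a share close to the 17.8% of all genes called in this contrast. Cyba was 0.51 higher (adjusted p = 1.87e-05), whereas Cd177, the gene most like the secondary members, was 0.43 lower without passing (adjusted p = 0.20). Genes named in this and the preceding paragraph outside the naming rule were chosen after their values were seen.

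Among genes that process or inhibit granule proteases, 5 of 10 rose between LPS/HI and Sham and none fell, beside 8.77% of all genes called, and between LPS and Sham 3 of 10 were higher and 1 lower, beside 17.8% of all genes. A2m (alpha-2-macroglobulin) rose by 0.79 (SE 0.10, adjusted p = 0.000755, limma) and Timp1, the inhibitor of matrix metalloproteinases such as Mmp8 and Mmp9, by 0.79 (SE 0.11, adjusted p = 0.000843). Timp1 also rose by 0.71 between LPS and Sham (adjusted p = 0.000129), where Mmp8 and Mmp9 did not pass. Serpinb1a, a cytosolic inhibitor of elastase, proteinase 3 and cathepsin G, rose by 0.73 between LPS/HI and NaCl/HI (SE 0.12, adjusted p = 0.0185), where none of these proteases was called. Of the 6 receptors of granule proteins in the table none passed between LPS/HI and Sham by limma (3 without adjustment). Of 12 regulators of granulopoiesis none passed there either (5 without adjustment), and Cebpe differed by 0.25 (adjusted p = 0.0795). Between LPS and Sham 3 of the 12 regulators were higher and 1 lower, and 2 of the 6 receptors were lower, beside 17.8% of all genes.

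Marker lists of the cells that a CD11b/c preparation could carry were set beside the increases in LPS/HI. Between LPS/HI and Sham 6 of 15 neutrophil genes rose and none fell, beside 8.77% of all genes called, among them S100a9 (1.18), S100a8 (1.11), Il1r2 (0.89), Padi4 (0.75, adjusted p = 0.0157, limma) and Retnlg (0.72). The others did not pass: Cxcr2 was 0.27 higher (adjusted p = 0.31), Csf3r 0.15 higher (0.14), Cxcr1 0.27 lower (0.0823), Fpr1 0.10 lower (0.52) and Hdc 0.03 lower (0.91). Trem1, Fpr2, Clec4d and Il1b also had higher means than in Sham without passing. Of the 15 genes 12 were higher in mean, and 12 of the 15 had limma p under 0.05 without adjustment. The median difference over the 15 genes was 0.39. Against LPS 2 of 15 rose (1.94% of all genes), and against NaCl/HI none passed (0.202% of all genes, 8 of the 15 at p under 0.05 without adjustment), with S100a9 1.02 higher (adjusted p = 0.16) and S100a8 1.07 higher (0.14). In that last contrast the granule genes Olfm4 and Lcn2 passed where no other neutrophil gene of the list did, but the difference between those genes was not tested. LPS/HI replicate 4, the highest sample in 4 members, was also the highest of the 6 LPS/HI samples for 11 of the 15 neutrophil genes, 6 of the 6 erythrocyte markers and 7 of the 9 microglia markers. Without it, in an analysis chosen after the data were seen, 4 of 15 neutrophil genes were higher than in Sham (5.32% of all genes called). By limma none passed against LPS (9 at p under 0.05 without adjustment) or against NaCl/HI (7), beside 0.837% and 0.00985% of all genes called.

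The 4 astrocyte markers, beside Lcn2, averaged 10.1 to 10.6 in Sham, 10.3 to 10.8 in LPS, 10.1 to 11.002 in NaCl/HI and 10.5 to 10.9 in LPS/HI, with Gfap 0.84 higher in LPS/HI than in Sham (adjusted p = 0.0326, limma) and 0.09 higher than in NaCl/HI (0.92), where none of the 4 passed with or without adjustment. The 6 monocyte markers averaged 9.03 to 9.58 in Sham and 9.34 to 10.1 in LPS/HI, with 1 of 6 called higher beside 8.77% of all genes, and Plac8 fell by 0.72 between LPS/HI and LPS (adjusted p = 0.00883, limma). The 5 endothelial markers averaged 11.3 to 11.6 in Sham and 11.4 to 11.7 in LPS/HI, with Flt1 0.31 higher against LPS (adjusted p = 0.0150). All 5 were higher in mean in LPS/HI than in LPS and than in NaCl/HI, with p under 0.05 without adjustment for 4 in each contrast. After adjustment 1 and 0 were called, beside 1.94% and 0.202% of all genes. Of the 9 microglia markers Sall1 fell by 0.22 against Sham (adjusted p = 0.0127), and 0 of 6 erythrocyte and 1 of 4 platelet markers were called against Sham (1 lower), beside the same 8.77%. The means of all 6 erythrocyte markers were above those in LPS (median difference 0.33) and in NaCl/HI (0.09), with none called or at p under 0.05 without adjustment in either contrast by limma. The part of these cells in the granule gene differences was not tested.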

How the data were processed

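Microglia RNA-seq of 23 samples in 4 groups was analysed. According to the study's methods and the submitters' processing notes, the authors quantified reads with kallisto 0.48.0 (quality control with FastQC 0.11.9 and MultiQC 1.14), summarised them to genes, applied the rlog transformation of DESeq2 and removed 3 surrogate variables. The deposited table holds these log2 values (rlog) for 20301 genes, not divided by transcript length and with no counts, so the depth of a sample is unknown, no counting interval can be given, and positions of genes on this scale describe counts, not relative levels. The removal takes spread out of the groups, so p-values may be too small.

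All 23 samples were fitted together with limma 3.58.1 (R 4.3.3) with 1 mean per group, a variance trend and 16 residual degrees of freedom in place of 19, for the 3 removed variables. Adjusted p-values (Benjamini-Hochberg) run over all 20301 genes, two-sided, with a threshold of 0.05. A second rule also required a fold above 2. Nothing in the sources used here gives the litter or culture of each sample, so p-values measure the spread between samples. The script was tested on simulated data. Exact two-sided Wilcoxon tests were an alternative. Their smallest p is 0.00216 for 6 against 6 samples and 0.00433 for 5 against 6. The 10 other analyses were 19 degrees of freedom, no trend, robust variances, a replicate block, a library series block, removal of genes with a mean under 4.14, median centring, quantile normalisation, 2 groups alone and the Wilcoxon test. The 23 libraries were also left out in turn.

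The members and gene lists were chosen with earlier results of these data known. Motifs were chosen after the values were seen. All members were reported, together with the 10 listed non-members of smallest adjusted p in any LPS/HI contrast (A2m, Timp1, Cyba, Plac8, Sall1, Flt1, Padi4, Cd14, Serpinb1a and 1 that is not reported here), the defining markers S100a8, S100a9, Cxcr2 and Csf3r, and the 5 genes most like each class. The correlations and motif matches were computed with Python 3.11.15. Promoters were on GRCr8, whereas the authors annotated on mRatBN7.2, so no position was taken from their files. No member had a row identical to that of another gene.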

Additional observations from a re-analysis of the deposited data

Results flagged for a closer look

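Mpo in LPS replicate 1 stood apart from the other samples of its group. Its value of 2.81 was the highest of the 5, the nearest was 2.49 and the lowest 2.40, so that the gap made up 0.776 of the range, above Dixon's critical value of 0.710. Of the 40 sets of a gene and a group tested in this way 1 exceeded its critical value, and chance alone gives about 1 in 20. Without this sample the Mpo difference between LPS/HI and LPS moved from 0.26 to 0.33 and was called (adjusted p = 0.0339, limma).

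Olfm4 differed in its response to LPS between the sham and the hypoxia-ischaemia arms by the interaction term, at 1.75 on the log2 scale (SE 0.42, adjusted p = 0.0465 by limma). The NaCl/HI mean was exceeded in 6 of 6 samples given LPS before the insult, and the Sham mean in 2 of 5 given LPS alone.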

How the results depend on the processing

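With each library left out in turn the number of members called ran from 1 to 3 for LPS/HI against Sham (3 in the full data), 0 to 3 against LPS (2), 0 to 2 against NaCl/HI (2), 1 to 2 for LPS against Sham (2), 0 to 2 for LPS against NaCl/HI (1) and 0 to 1 for the interaction (1), and was 0 for NaCl/HI against Sham under every analysis run. For LPS/HI against Sham the count was 1 with robust variances and 1 by the Wilcoxon test. For LPS/HI against LPS it was 1 with a fold above 2, 5 with 19 residual degrees of freedom, and 0 without the trend, with robust variances, after quantile normalisation, with 2 groups alone and by the Wilcoxon test. For LPS/HI against NaCl/HI it was 0 without the trend, with robust variances, with 2 groups alone and by the Wilcoxon test, and 1 with the library series block, median centring or quantile normalisation. For LPS against Sham it was 1 with a fold above 2, without the trend, with robust variances, after quantile normalisation and by the Wilcoxon test. For LPS against NaCl/HI it was 0 with a fold above 2, with 2 groups alone and by the Wilcoxon test, and 2 with 19 degrees of freedom. For the interaction it was 0 without the trend, with robust variances, with the series block and after quantile normalisation. The cause was not tested.

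Replicate numbers did not pair the samples: same-numbered samples of different groups had correlations of their deviations from -0.475 to 0.470 over 33 pairs, and 5 of 23 samples correlated best with their own number. With a replicate block the count of members called was 0 for each LPS/HI contrast and for the interaction, and 1 (Ngp) for LPS against Sham and LPS against NaCl/HI.

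Only differences that were not called changed sign. Ltf, LPS/HI against LPS (0.00091), was -0.0028 with the series block, -0.030 with median centring and -0.040 after quantile normalisation, and Ltf, LPS against NaCl/HI, was 0.025 after quantile normalisation. Mmp8, LPS against NaCl/HI, was -0.0077 with the replicate block. The interaction of Elane was -0.012 with median centring, and that of Prtn3 was -0.012 with the replicate block, -0.0075 with median centring and -0.0096 after quantile normalisation. With 1 library left out, the difference for Camp, LPS/HI against Sham, ran from -0.037 to 0.23. For Ltf, LPS/HI against LPS, it ran from -0.043 to 0.037. For Elane, LPS/HI against NaCl/HI, it ran from -0.029 to 0.0033. For Ltf, LPS/HI against NaCl/HI, it ran from -0.077 to 0.0077. For Lcn2, LPS against Sham, it ran from -0.10 to 0.19. For Mmp8, LPS against Sham, it ran from -0.31 to 0.0083. For Olfm4, LPS against Sham, it ran from -0.28 to 0.0055. For Mpo, NaCl/HI against Sham, it ran from -0.051 to 0.042. For Prtn3, NaCl/HI against Sham, it ran from -0.042 to 0.046. For Ltf, LPS against NaCl/HI, it ran from -0.070 to 0.0067. For Mmp8, LPS against NaCl/HI, it ran from -0.090 to 0.22. For Prtn3, interaction of LPS with HI, it ran from -0.0081 to 0.080.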
